A study of Mus musculus with 96 samples.

Results

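The let-7 family was followed in 4 cell types of the mouse heart over 6 time points of myocardial infarction (MI), as 9 mature microRNAs (miRNAs) counted by small RNA sequencing. The members were taken by name as mmu-let-7a-5p, mmu-let-7b-5p, mmu-let-7c-5p, mmu-let-7d-5p, mmu-let-7e-5p, mmu-let-7f-5p, mmu-let-7g-5p, mmu-let-7i-5p and mmu-miR-98-5p, which makes 9 of the 1978 mature sequences in the count tables. The hearts came from male C57Bl/6J mice of 12 to 14 weeks, with MI produced by tying off the left anterior descending artery for good, and hearts were taken on days 1, 3, 7, 14 and 28 (D1 to D28). The D0 control hearts came from mice without an operation, so the D0 comparison carries both the operation and the infarct. Cardiomyocytes (CMs) were collected by centrifugation, endothelial cells (ECs) with beads against CD144, hematopoietic cells (HCs) with beads against CD45 and fibroblasts (FBs) by plating. RNA of 3 mice (2 if a sample was lacking) was combined in each of the 96 libraries, with 4 libraries in each of the 24 groups. The study names these libraries both biological and technical replicates, so p-values measure the spread between these libraries, which may be partly technical.

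Members of the let-7 family are among the most abundant miRNAs of differentiated cells. A miRNA pairs with messenger RNAs mainly through its seed, the bases from position 2 to position 8, and lowers their translation and stability. Members with one seed can therefore recognize overlapping sets of messages, and known let-7 targets include Hmga2, Lin28a and Lin28b. The LIN28 proteins in turn bind let-7 precursors and block their maturation. Because members differ in the bases after the seed and come from separate loci, the make-up of the family can change while its sum does not.

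The mature sequences are printed to show how little separates the members, since each count rests on telling these letters apart. They were taken from RefSeq annotation of GRCm38.p6, where all 9 names were found, and capitals mark the seed.
mmu-let-7a-5p: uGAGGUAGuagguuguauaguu
mmu-let-7b-5p: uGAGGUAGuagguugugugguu
mmu-let-7c-5p: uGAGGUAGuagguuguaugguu
mmu-let-7d-5p: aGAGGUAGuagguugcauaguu
mmu-let-7e-5p: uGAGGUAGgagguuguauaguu
mmu-let-7f-5p: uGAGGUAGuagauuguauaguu
mmu-let-7g-5p: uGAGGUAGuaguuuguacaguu
mmu-let-7i-5p: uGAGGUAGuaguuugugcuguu
mmu-miR-98-5p: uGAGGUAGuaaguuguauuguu

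All 9 members are 22 bases long and carry the seed GAGGUAG. Counted from 1 at the 5′ end and with the let-7a-5p base first, let-7c-5p differs from let-7a-5p by A19G, let-7e-5p by U9G and let-7f-5p by G12A. The largest distance from let-7a-5p is that of let-7i-5p, with 4 differences (G12U, A17G, U18C and A19U). Of the 36 pairs of members, 4 differ at 1 position, and no pair differs at more than 6. A read with an error or a natural end variant may therefore be counted for a neighbour, and the share of such reads was not tested.

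The same seed occurs in 11 of 1679 mature mouse names in that annotation, the 9 members together with let-7k and miR-1961. Both of these had 0 counts in every library. Another relative, let-7j, was abundant, and it is printed because its row closely tracks that of let-7i-5p.
mmu-let-7j: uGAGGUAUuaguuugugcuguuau
Over the 22 bases of let-7i-5p it differs by G8U, which lies in the seed, and it has 2 further bases at its 3′ end. The count of let-7j was between 0.661 and 0.997 times that of let-7i-5p in the 96 libraries, with a median of 0.855. How reads that match both entries were counted is not given in the sources used here, so every value of let-7i-5p is read with this limit, and its shares with let-7j added are given below.

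The loci are spread over 7 chromosomes, and several members share one primary transcript with another. Mirlet7i lies at chr10:122985640-122985724 on the minus strand, in an exon of the transcribed pseudogene D630033A02Rik. Mirlet7c-2 (chr15:85706603-85706697) and Mirlet7b (chr15:85707319-85707403) lie side by side on the plus strand in an exon of the long non-coding RNA Lncppara. Mirlet7d (chr13:48536012-48536114), Mirlet7f-1 (chr13:48537829-48537917) and Mirlet7a-1 (chr13:48538179-48538272) lie together on the minus strand in exonic sequence of the long intergenic RNA 6720427I07Rik. Mirlet7f-2 (chrX:151912346-151912428) and Mir98 (chrX:151913214-151913321) share an intron of Huwe1, which encodes a ubiquitin ligase, on the plus strand. Mirlet7g (chr9:106178840-106178927) lies in an intron of Wdr82 on the plus strand. Since let-7a-5p, let-7c-5p and let-7f-5p each come from a pair of loci with one mature sequence, their counts cannot be divided between those loci.

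The family made up a very different part of the mature miRNA counts in each cell type. Its part was largest in FBs, at 32.6% ± 2.11 (SD, n = 24 libraries), followed by HCs at 26.6% ± 2.81, ECs at 22.7% ± 7.14 and CMs at 6.35% ± 1.65. Depth ranged from 18286 mature counts in HC D0 replicate 3 to 65588543 in an FB library. That shallow library held 4085 family counts, and the other 95 held at least 138115. In those 95 libraries the widest 95% Wilson interval of a member's share was 0.231 percentage points to either side, which covers counting error only. Read counts of PCR products are not independent molecules.

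The sorted cells carried their own markers, but ECs and HCs also held much of the markers of other cells. The summed CM markers (miR-1a-3p, miR-133a-3p, miR-208a-3p and miR-499-5p) ranged from 311247 to 709040 CPM (each count scaled by the mature total of its library) in CMs, against 776 to 5825 in FBs. The same markers reached 20924 to 162111 CPM in ECs and 25975 to 132287 CPM in HCs. The HC markers (miR-142a-3p, miR-142a-5p, miR-223-3p and miR-150-5p) ranged from 6819 to 25731 CPM in HCs and stayed at or below 4616 CPM elsewhere. In every HC library the summed CM markers thus exceeded the summed HC markers. The most abundant miRNA was miR-1a-3p in 4 HC libraries and 1 EC library, and miR-126a-3p in 1 HC library. Of the HC markers, miR-150-5p was alike in ECs (2544 ± 680 CPM, SD, n = 24) and HCs (2586 ± 1398 CPM). For the EC pair and the FB trio too, each library of the named type lay above every library of the others. In bulk libraries, fewer cells of a type and less RNA per cell cannot be told apart.

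Within the family, let-7a-5p and let-7f-5p together supplied between 40.9% and 68.2% of the count in every library. The share of a member is its count as a percent of the sum over the 9 members of the same library, a measure that does not depend on how libraries are scaled to each other. Averaged over days, the share of let-7a-5p differed little between cell types, with CMs at 26.6% ± 1.55, ECs at 26.6% ± 1.12, HCs at 26.4% ± 1.23 and FBs at 25.4% ± 0.529 (SD, n = 24 each). At the other end, miR-98-5p supplied 0.264% ± 0.0750, 0.125% ± 0.0352, 0.315% ± 0.101 and 0.148% ± 0.0337 in the same order. In ECs and FBs let-7a-5p exceeded its next neighbour in all 24 libraries, whereas let-7f-5p exceeded let-7a-5p in 18 of 24 CM libraries and in 16 of 24 HC libraries. In HCs let-7i-5p and let-7c-5p had no fixed order, with let-7i-5p the higher in 11 of 24 libraries.

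**Figure D1:**
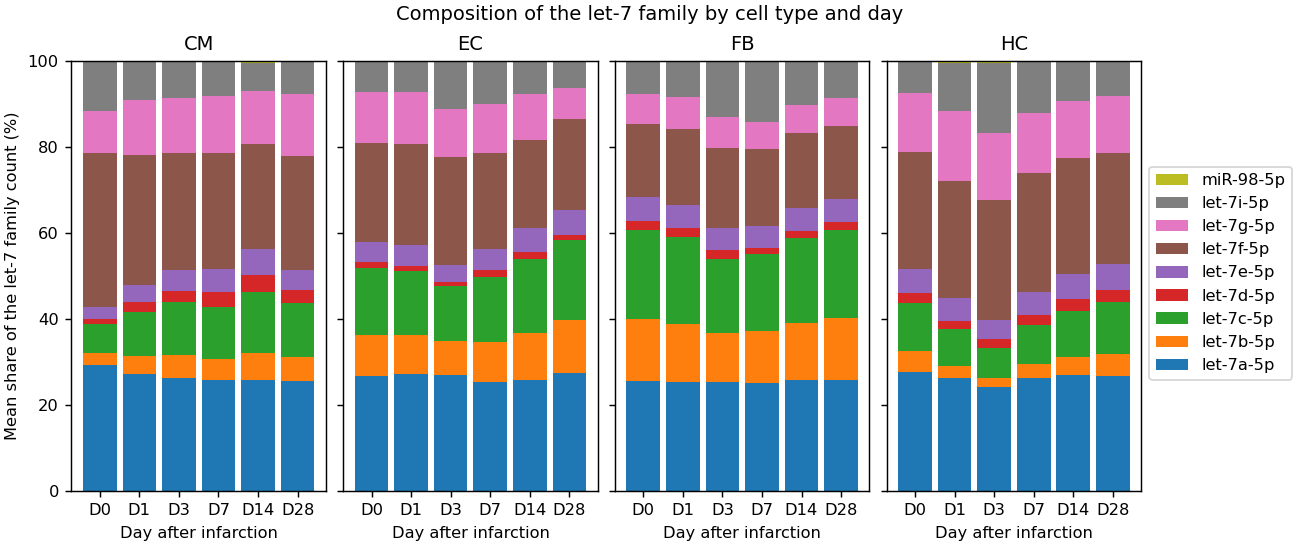
Mean share of each let-7 member in the family count (y axis, percent) by day after infarction (x axis), with 1 panel for each cell type and 4 libraries behind each bar. The let-7a-5p block at the base lies between 24.1% (HCs at D3) and 29.2% (CMs at D0). The let-7i-5p block swells at D3 and D7 in ECs, FBs and HCs, and the let-7b-5p and let-7c-5p blocks are widest in FBs.

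To ask which members set the cell types apart, shares were compared between the 6 pairs of cell types in one edgeR quasi-likelihood fit over the 96 libraries, with Benjamini-Hochberg adjustment over the 712 miRNAs tested. The test called 43 of 54 member and pair combinations, or 8 of 9 members in at least 1 pair, against 77.5% of all combinations of miRNA and pair under the same scaling. The exception was let-7a-5p, called in no pair. The members were thus called about as often as miRNAs in general. Libraries were prepared in batches by cell type, with different RNA input and PCR cycles, so cell type and preparation batch cannot be told apart in these comparisons. By the study's methods the pools of a day also drew on the same mice, so libraries of different cell types may not be independent, and which pools match is not given in the sources used here. With day and replicate number together as a block, 43 combinations were again called.

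By fold change of share, let-7b-5p differed most between cell types. It supplied 13.2% ± 1.34 of the family in FBs, 9.87% ± 1.93 in ECs, 4.89% ± 1.32 in CMs and 3.66% ± 1.14 in HCs (SD, n = 24). Its share was 3.76-fold higher in FBs than in HCs (log2 difference 1.91 ± 0.06 SE, edgeR adjusted p = 2.33e-45), and all 6 of its pairs were called. The share of let-7c-5p, whose second locus adjoins that of let-7b, fell in the same order from 19.4% ± 1.61 in FBs through 15.7% ± 2.50 in ECs and 11.3% ± 2.88 in CMs to 9.76% ± 1.82 in HCs. The reverse order held for let-7g-5p, which was 14.4% ± 1.33 in HCs and 6.85% ± 0.694 in FBs. Its log2 difference between FBs and HCs was -1.07 ± 0.05 (adjusted p = 3.80e-35).

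Of the lesser members, miR-98-5p was ordered HCs, CMs, FBs and ECs with every neighbour called, and its share was 2.11-fold higher in CMs than in ECs (adjusted p = 4.45e-24). The share of let-7d-5p was 2.79% ± 1.09 in CMs and 2.41% ± 0.361 in HCs, a pair that was not called (adjusted p = 0.130), above 1.86% ± 0.314 in FBs and 1.38% ± 0.323 in ECs. The share of let-7f-5p did not separate CMs (28.5% ± 4.14) from HCs (27.2% ± 0.885, adjusted p = 0.154) and was lowest in FBs at 17.6% ± 0.914. For let-7e-5p, with means from 4.62% in CMs to 5.45% in HCs, FBs and HCs were not separated (adjusted p = 0.527). Averaged over days, let-7i-5p did not separate FBs from HCs (adjusted p = 0.664) or CMs from ECs (adjusted p = 0.380).

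**Figure D2:**
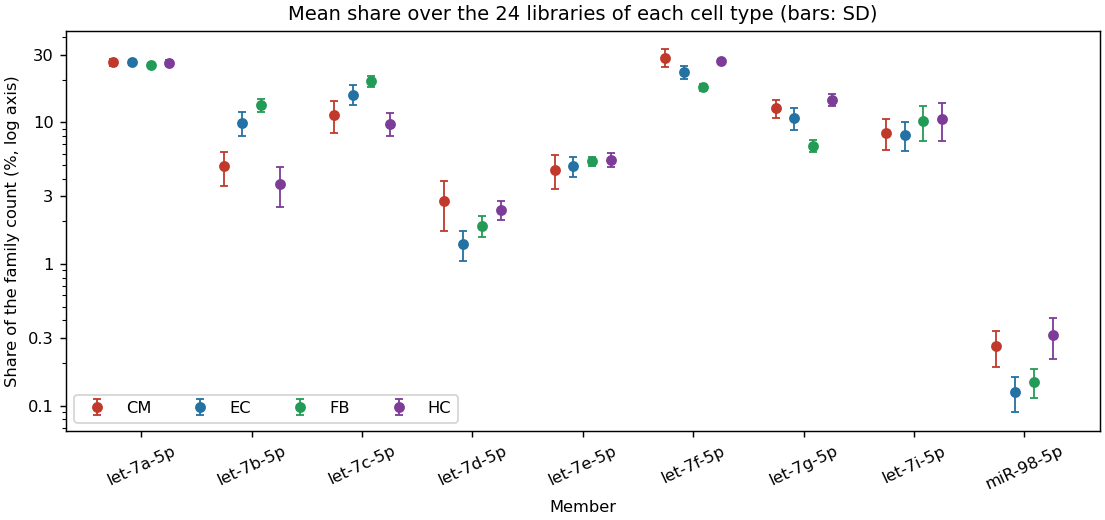
Share of each member in the family count (y axis, percent on a log axis) in the 4 cell types, as the mean over 24 libraries with SD bars. The 4 points of let-7a-5p coincide near 26%, those of let-7b-5p spread from 3.66% in HCs to 13.2% in FBs, and those of miR-98-5p lie below 1%.

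Levels, the counts scaled between libraries by edgeR's trimmed mean of M-values (TMM), gave 39 of 54 calls between cell types, against 76.3% of all combinations of miRNA and pair. The level of let-7b-5p was 7.15-fold higher in FBs than in HCs (log2 difference 2.84 ± 0.09, adjusted p = 1.31e-47) and 3.98-fold higher in ECs than in HCs (adjusted p = 9.55e-37). On the CPM scale, let-7a-5p ranked first of all mature miRNAs in FBs by mean level (82901 ± 5880 CPM, SD, n = 24), with let-7c-5p next at 63501 ± 8326 CPM. In CMs, where miR-1a-3p led in all 24 libraries, let-7f-5p was the highest member at rank 10 (17511 ± 2744 CPM). By TMM the level of let-7g-5p was called in 1 of its 6 pairs, ECs against FBs (1.16-fold, adjusted p = 0.0135). Level comparisons with CMs depended on the scaling. By CPM let-7g-5p averaged 8072 ± 2397 in CMs and 38292 ± 5642 in HCs, but the TMM ratio was 0.956 and not called. By CPM let-7b-5p averaged 3302 in CMs and 9652 in HCs, but TMM called it 1.49-fold higher in CMs.

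The time courses of the shares differed between cell types. In a test of the interaction of cell type and day, 8 of 9 members passed for share, all but let-7a-5p (adjusted p = 0.581), against 76% of all miRNAs. For level, 8 of 9 passed, all but let-7g-5p (adjusted p = 0.123), against 76.3%. With the block of day and replicate number, 8 passed for share and 7 for level. The averages over days above therefore pool unlike courses.

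In HCs the largest fold changes of share in the first week after MI were rises of let-7i-5p and miR-98-5p and falls of let-7b-5p and let-7c-5p. The share of let-7i-5p was 7.10%, 7.01%, 7.29% and 7.15% in the 4 D0 libraries and 16.8%, 15.6%, 16.2% and 16.5% in the 4 D3 libraries. Every D3 library lay above every D0 library, and the D1 and D7 libraries (10.2% to 11.8% and 10.1% to 12.8%) lay between them. At D28 its share was 7.82% ± 0.826 (SD, n = 4), against 7.14% ± 0.120 at D0. The D3 share was 2.28-fold that of D0 (log2 change 1.19 ± 0.10 SE, edgeR adjusted p = 3.90e-10), and the rise also passed at D1, D7 and D14. With let-7j counted as let-7i-5p, an alternative chosen after the data were seen, the log2 change at D3 was 0.98.

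Its rarest companion rose with it. The share of miR-98-5p, from the Huwe1 intron, was 0.224%, 0.181%, 0.269% and 0.174% at D0 and 0.547%, 0.538%, 0.409% and 0.456% at D3, with no overlap. The log2 change was 1.28 ± 0.15 at D3 (adjusted p = 1.10e-07) and 0.88 ± 0.15 at D1 (adjusted p = 3.31e-05). Of these values, that of D0 replicate 3 rested on 11 counts, with a 95% Wilson interval of 0.1504% to 0.482%. Without that library the log2 change at D3 was 1.34. No change in the share of let-7f-5p, whose second locus is in the same intron, was called in HCs on any day.

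The shares of let-7b-5p and let-7c-5p went the other way. For let-7b-5p the D0 shares in HCs were 4.16%, 4.85%, 4.94% and 5.11%, and the D3 shares were 1.97%, 2.17%, 1.98% and 2.09%, again without overlap. The share fell by 1.22 ± 0.12 on the log2 scale (0.431-fold, adjusted p = 5.43e-09), and at D28 it was 5.10% ± 0.372 against 4.77% ± 0.418 at D0. The share of let-7c-5p fell by 0.68 ± 0.08 at D3 (adjusted p = 2.06e-07). In percentage points at D3, let-7c-5p changed by -4.20, let-7a-5p by -3.57, let-7b-5p by -2.72 and let-7e-5p by -1.23, all without overlap with D0. The share of let-7g-5p changed by 2.61 points at D1 and 1.85 at D3, also without overlap. By the F test over days let-7e-5p (adjusted p = 0.000804) and let-7g-5p (adjusted p = 0.00191) passed, but let-7a-5p did not (adjusted p = 0.0690). As a ratio that needs no family sum, let-7i-5p counted 1.51 ± 0.137 times let-7b-5p at D0, 7.95 ± 0.574 times at D3 and 1.54 ± 0.154 times at D28 (SD, n = 4).

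Over all days in HCs, 7 of 9 members changed in share by the F test across days, against 72.2% of all miRNAs. Of 45 combinations of member and day, 10 were called higher and 8 lower than D0, against 25.9% and 16.7% of all combinations of miRNA and day. These rates are close to those of all miRNAs. In level, 6 of 9 members changed, against 73.5%, with 6 of 45 combinations higher and 7 lower, against 22.8% and 20.2%. By level at D3, let-7i-5p was 2.18-fold higher (16193 ± 926 CPM at D0, 47200 ± 6342 CPM at D3, adjusted p = 2.88e-07) and let-7b-5p was 0.410-fold (10787 ± 635 CPM at D0, 5930 ± 605 CPM at D3, adjusted p = 1.86e-07). Scaled by library size alone, the HC split was 24 higher and 4 lower, with DESeq2 it was 10 and 5, and without D0 replicate 3 the count of lower calls was 12. The count of higher calls was 12 to 14 and that of lower calls 4 when any of D3 replicates 1, 2 and 4 or D7 replicate 3 was left out.

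Marker levels also moved in the HC libraries. The summed CM markers averaged 109682 CPM at D0, 49081 CPM at D3 and 34221 CPM at D28. The EC pair (miR-126a-3p and miR-126a-5p) averaged 72290, 18747 and 22087 CPM on these days, the mural pair (miR-143-3p and miR-145a-5p) 26472, 5862 and 8404 CPM, and the FB trio (miR-199a-3p, miR-199a-5p and miR-214-3p) 4325, 2903 and 15533 CPM. The HC markers themselves averaged 8025 CPM at D0, 20538 CPM at D1, 20693 CPM at D3, 17289 CPM at D7, 11152 CPM at D14 and 9833 CPM at D28. Their mean, like that of the let-7i-5p share, was highest at D3. The HC marker sums of the D1 libraries (18244 to 25731 CPM) and the D3 libraries (14671 to 25044 CPM) overlapped. The part of any of these cells in the shares was not tested.

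**Figure D3:**
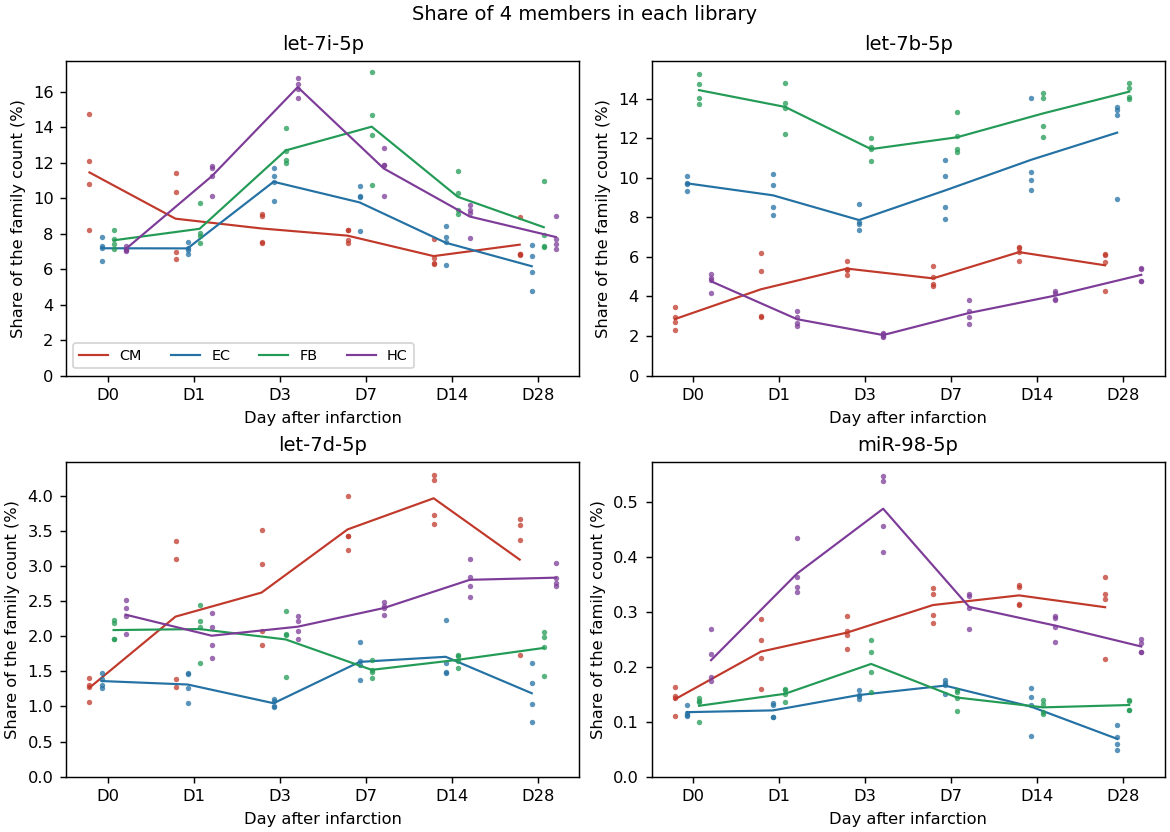
Share of the family count (y axis, percent) of let-7i-5p, let-7b-5p, let-7d-5p and miR-98-5p in each library (points) by day after infarction (x axis), with lines through the means of 4 libraries and 1 colour for each cell type. In HCs let-7i-5p and miR-98-5p peak at D3 while let-7b-5p is lowest, let-7i-5p peaks at D7 in FBs and at D3 in ECs, and let-7d-5p rises in CMs from 1.27% at D0 to 3.96% at D14.

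In FBs let-7i-5p gained share as well, with a later peak. Its share was 7.69%, 7.15%, 8.24% and 7.45% at D0, then 12.2%, 14.0%, 11.98% and 12.7% at D3, and 14.7%, 10.8%, 13.6% and 17.1% at D7. The D3 and D7 libraries all lay above the D0 libraries, and the spread at D7 (SD 2.64, n = 4) exceeded that at D3 (SD 0.891). The log2 change was 0.74 ± 0.14 at D3 (adjusted p = 0.000105), 0.88 ± 0.14 at D7 (adjusted p = 1.38e-05) and 0.40 ± 0.14 at D14 (adjusted p = 0.0370). The difference between the D3 and D7 shares was not tested.

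The other shares of FBs moved by less. At D3 miR-98-5p rose by 0.67 ± 0.16 on the log2 scale (adjusted p = 0.00140), while let-7b-5p fell by 0.33 ± 0.08 (adjusted p = 0.00219) and let-7c-5p fell by 0.27 ± 0.07 (adjusted p = 0.00441). Without a filter on low counts the calls of let-7b-5p and let-7c-5p were lost (adjusted p = 0.0773 and 0.167). The share of let-7b-5p in these libraries was 13.7% to 15.2% at D0 and 10.8% to 11.99% at D3. At D7 let-7d-5p fell by 0.46 ± 0.14 (adjusted p = 0.0142), a call that was lost without D7 replicate 4 (adjusted p = 0.0507). In all, 5 of 9 members changed over days, against 68.4% of miRNAs, and 4 of 45 combinations were higher and 5 lower than D0, against 19.9% and 4.37%. Without D7 replicate 4 the count of lower calls was 2.

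In level, 8 of 9 members of FBs changed over days, against 68.2%, with 1 combination higher and 13 lower than D0, against 14.5% and 11.1%. The higher one was let-7i-5p at D7 (1.47-fold, 25819 to 44372 CPM, adjusted p = 0.00239). Of the lower ones, let-7b-5p fell by 0.80 ± 0.13 on the log2 scale at D3 (48966 to 35137 CPM, adjusted p = 1.68e-05). At D3 the median log2 change was -0.47 over the members and 0.06 over all miRNAs tested. Scaled by library size alone the split was 3 higher and 5 lower, and without D0 replicate 2 it was 2 and 8. Leaving out any of D28 replicates 2, 3 and 4 gave 3 higher calls. In FBs the mural markers averaged 26524 CPM at D0 and 31157 CPM at D7, the CM markers 3229 and 1558 CPM, and their part in these changes was not tested.

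In ECs let-7i-5p again rose early in share, and 7 of 9 members were higher in level at the last time point. The share of let-7i-5p was 7.80%, 7.30%, 7.19% and 6.44% at D0 and 11.7%, 10.9%, 11.3% and 9.86% at D3, without overlap. Its log2 change at D3 was 0.61 ± 0.16 (1.52-fold, adjusted p = 0.00931), and without a filter on low counts the call was lost (adjusted p = 0.180). At D7 the log2 change was 0.44 ± 0.16 (adjusted p = 0.0492), a call lost when any of 18 of the 24 EC libraries was left out (adjusted p from 0.0543 to 0.151).

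At D28 the 2 falls in share called in ECs were those of let-7g-5p and miR-98-5p. Their CPM did not fall, averaging 21378 at D0 and 24924 at D28 for let-7g-5p and 214 and 240 for miR-98-5p, with overlapping libraries. The share of let-7g-5p was 12.5%, 11.5%, 11.6% and 11.4% at D0 and 8.97%, 7.74%, 5.26% and 6.90% at D28, a fall of 0.70 ± 0.16 on the log2 scale (adjusted p = 0.000776). The share of miR-98-5p fell by 0.77 ± 0.24 (adjusted p = 0.00922). Both calls were lost when D0 and D28 were fitted alone (adjusted p = 0.0544 and 0.120), and that of miR-98-5p also without a filter on low counts (adjusted p = 0.0746). One D28 library stood apart, since let-7b-5p supplied 8.92% in replicate 2 against 13.2% to 13.6% in the other 3 libraries.

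Over all days in ECs, 7 of 9 members changed in share, against 68.9% of miRNAs, with 2 combinations higher and 2 lower than D0, against 9.6% and 11.1%. The count of 7 was 3 when any of D3 replicates 1, 2 and 3 was left out and 4 without D28 replicate 3. Without D28 replicate 2 the 2 higher combinations became 5. The split was 4 higher and 2 lower relative to the geometric mean of the members, and 1 and 2 with let-7j counted as let-7i-5p. Leaving out any 1 of 18 libraries of D0 to D14 left 1 higher combination, that of let-7i-5p at D3.

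In level, 7 members of ECs changed, against 58.2%, with 8 combinations higher and 0 lower, against 14.3% and 6.03%. The split was 8 and 0 with DESeq2 too, but 5 and 0 without a filter on low counts and 7 and 4 with only the compared days in each fit. Of the 8, 7 were at D28, among them let-7b-5p (log2 change 1.40 ± 0.24, adjusted p = 4.08e-05), let-7e-5p (1.39 ± 0.24, adjusted p = 5.73e-05) and let-7c-5p (1.34 ± 0.23, adjusted p = 5.26e-05). The CPM of let-7b-5p was 16969, 18395, 18136 and 17340 at D0 and 36631, 26190, 51963 and 61921 at D28, where every library lay above D0 but the spread was wide. At D28 the median log2 change was 0.92 over the members and 0.07 over all miRNAs tested. The EC markers averaged 197806 CPM at D0 and 150231 CPM at D28 and the CM markers 104535 and 49234 CPM. The part of other cells in these levels was not tested.

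**Figure D4:**
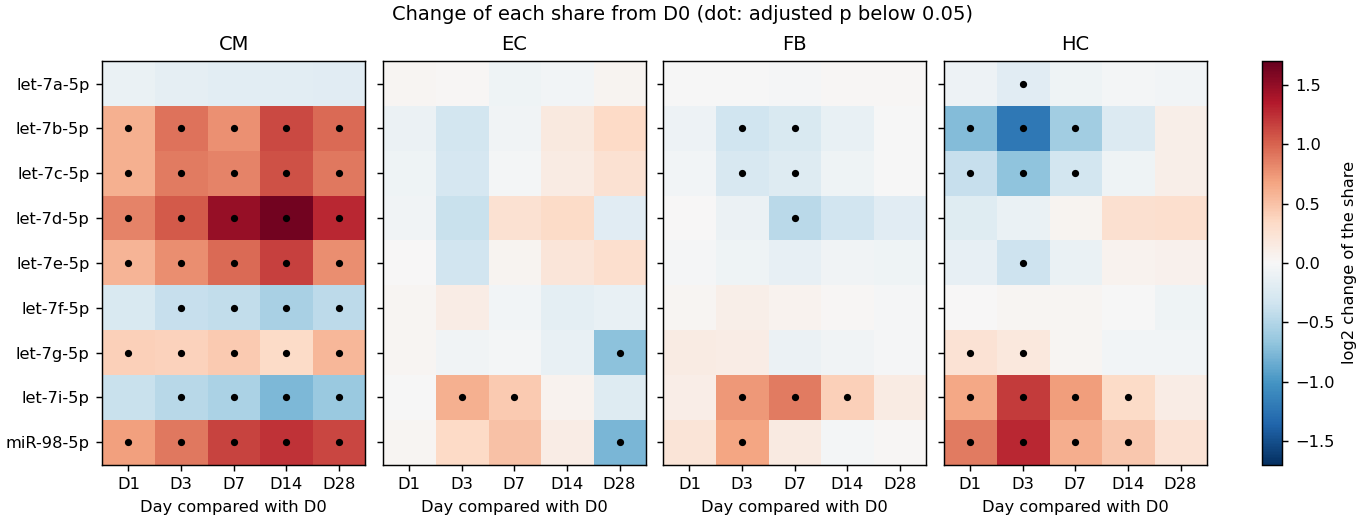
Log2 change of each member's share (colour) on each day compared with D0 (x axis) for the 9 members (y axis), with 1 panel for each cell type and a dot where the edgeR adjusted p was below 0.05. In HCs the let-7i-5p and miR-98-5p rows are red and the let-7b-5p row is blue up to D7, in FBs and ECs dots are few, and in CMs the let-7f-5p and let-7i-5p rows are blue while those of let-7b-5p, let-7c-5p, let-7d-5p, let-7e-5p, let-7g-5p and miR-98-5p are red.

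In CMs the direction for let-7i-5p was the opposite. Its D0 shares were 8.19%, 10.8%, 12.1% and 14.8%, and its D14 shares were 6.29%, 7.71%, 6.63% and 6.35%. All D14 libraries lay below D0, though the D0 libraries were widely spread. The share fell by 0.77 ± 0.19 on the log2 scale at D14 (adjusted p = 0.00100) and by 0.63 ± 0.19 at D28 (adjusted p = 0.00615). The share of let-7f-5p fell too, from 34.8% to 37.6% at D0 to 23.9% to 25.2% at D14 (a fall of 0.56 ± 0.12, adjusted p = 0.000196). Without a filter on low counts this call and that of let-7i-5p at D28 were lost (adjusted p = 0.0612 and 0.0577). The share of let-7a-5p was 29.2% ± 1.19 at D0 and 25.8% ± 0.155 at D14 (SD, n = 4), with all D14 libraries below D0. Its change over days was not called by the F test (adjusted p = 0.484).

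As a fold change, the largest rise in share of any member in CMs was that of let-7d-5p. It was 1.31%, 1.06%, 1.41% and 1.28% at D0, 3.42%, 4.00%, 3.23% and 3.43% at D7, and 4.23%, 3.73%, 3.59% and 4.30% at D14, with no D7 or D14 library within the range of D0. The log2 change was 1.47 ± 0.29 at D7 (adjusted p = 8.64e-05) and 1.65 ± 0.29 at D14 (3.13-fold, adjusted p = 2.77e-05). Relative to the geometric mean of the 9 members, in place of their sum, the D14 change was 1.08. The let-7c-5p share rose from 5.82% to 7.84% at D0 to 13.7% to 14.5% at D14, and miR-98-5p rose from 0.141% ± 0.0223 to 0.330% ± 0.0197. In percentage points the mean of let-7c-5p rose most at D14, by 7.48, against 2.70 for let-7d-5p.

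CM libraries of one day were not alike. At D1 let-7d-5p supplied 1.27% and 1.39% in replicates 1 and 2 but 3.36% and 3.09% in replicates 3 and 4. The family took 4.33% and 4.15% of mature counts in the first pair and 6.51% and 7.10% in the second. At D28 replicate 1 (let-7d-5p 1.73%) lay apart from the other 3 libraries (3.37% to 3.67%).

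In all, 8 of 9 members of CMs changed in share over days, against 82.2% of miRNAs, all but let-7a-5p. Of 45 combinations, 30 were higher and 8 lower than D0, against 58.6% and 11.9%. Counted relative to the let-7 sum, the median log2 change over all miRNAs tested in CMs was 1.84 at D14, against 1.08 over the members. Relative to the geometric mean of the members the split was 17 higher and 15 lower. Markers of other cells moved in the same libraries between D0 and D14, with the EC pair at 6915 and 23985 CPM, the FB trio at 56.6 and 1893 CPM and the HC markers at 31.0 and 167 CPM, while the mural pair averaged 29937 and 16925 CPM. The CM markers averaged 659155 and 374193 CPM on these days. The part of these cells in the shares and levels of let-7 was not tested.

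The direction of the levels in CMs turned with the scaling, so none is given. With TMM, 4 of 9 members changed, against 73.8%, and 0 combinations were higher and 21 lower than D0, against 30.4% and 23.8%. At D14 the median log2 change by TMM was 0.41 over all miRNAs tested and -0.37 over the members. DESeq2 gave 0 higher and 22 lower. Scaled by library size alone, 40 were higher and 0 lower. The let-7i-5p level at D14 shows the turn, with a log2 change of -2.20 ± 0.28 by TMM (adjusted p = 7.16e-07) and 0.40 by library size (adjusted p = 0.0327). The count of 4 changed members became 7 without D0 replicate 4 or D28 replicate 1, and 8 without any of D3 replicate 3, D7 replicates 2, 3 and 4 and the 4 D14 libraries.

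**Figure D5:**
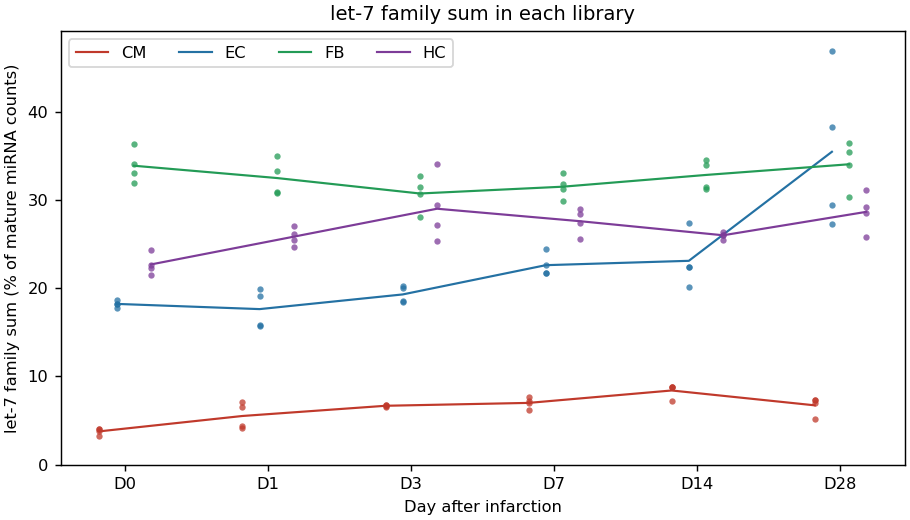
Sum of the 9 let-7 members as a percent of all mature miRNA counts (y axis) in each library (points) by day after infarction (x axis), with lines through the means of 4 libraries and 1 colour for each cell type. CM libraries stay below 9%, FB libraries lie between 28.1% and 36.4% on all days, and the D28 EC libraries spread from 27.3% to 46.9%.

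The family sum as a percent of mature counts is given as a description, since it depends on every other miRNA of the library. In CMs it was 4.00%, 4.07%, 3.20% and 3.85% at D0 and 8.77%, 8.85%, 7.26% and 8.76% at D14. In ECs it was 17.8% to 18.7% at D0 and 27.3%, 29.4%, 38.2% and 46.9% at D28. In HCs it was 21.4% to 24.4% at D0 and 25.7% to 31.1% at D28, and in FBs the D0 range of 32.0% to 36.4% overlapped that of every later day. With the most abundant miRNA of each library left out of the total, the CM mean over 24 libraries was 12.8% in place of 6.35%.

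The opposite strand of each hairpin gives a second count of the same precursors, because a hairpin yields a 5p and a 3p arm and one of them is usually discarded. The 12 other arms were far scarcer, with mean levels between 0.149 and 1166 CPM over the cell types, and let-7a-1-3p and let-7c-2-3p share one sequence and one count. In HCs 6 of 50 combinations of other arm and day were higher than D0 in level and 11 lower, against 22.8% and 20.2% of all combinations of miRNA and day. At D3 let-7i-3p rose by 0.69 ± 0.23 on the log2 scale (adjusted p = 0.0107) and miR-98-3p by 1.30 ± 0.29 (adjusted p = 0.000448), while let-7b-3p fell by 1.94 ± 0.22 (adjusted p = 4.52e-08). These are the directions of their 5p arms. By the F test over days in level, let-7b-3p (adjusted p = 5.40e-08) and miR-98-3p (adjusted p = 0.00211) passed, but let-7i-3p did not (adjusted p = 0.0581). However, each of the 3 rows had 1 count in D0 replicate 3. In the other 3 D0 libraries let-7b-3p was 40.6, 44.5 and 44.1 CPM, against 11.4, 13.9, 19.1 and 21.0 CPM at D3. In FBs 0 of 55 were higher and 10 lower, against 14.5% and 11.1%, and in ECs 1 and 2 of 45, against 14.3% and 6.03%. In CMs TMM gave 13 and 18 of 55, against 30.4% and 23.8%, with no direction drawn because that of the members turned with the scaling.

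The neighbours miR-99a, miR-99b, miR-100, miR-125a and miR-125b share primary transcripts with let-7 loci, for example Mir99a with Mirlet7c-1 in an intron of Mir99ahg. In HCs their 5p arms were lower than D0 in level in 20 of 25 combinations and higher in 0, against 20.2% and 22.8% of all combinations of miRNA and day. At D3 miR-125a-5p, whose locus adjoins Mirlet7e in Spaca6, fell by 2.76 ± 0.23 on the log2 scale (adjusted p = 2.46e-10), and let-7e-5p fell by 0.42 ± 0.16 (adjusted p = 0.0271). This let-7e-5p fall was by TMM only, since by CPM it averaged 12961 at D0 and 13044 at D3, with overlapping libraries. The fall of miR-99a-5p was 1.89 ± 0.25 (adjusted p = 4.09e-07), beside a fall of 0.75 ± 0.15 for let-7c-5p (adjusted p = 0.000150). In FBs 0 of 25 were higher and 8 lower, against 14.5% and 11.1%, and in ECs 4 and 1, against 14.3% and 6.03%. In CMs TMM gave 5 and 13, against 30.4% and 23.8%, again with no direction drawn.

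Over the 24 group means, the miRNAs outside the family whose log2 CPM was most like that of the family sum, of 162 with a mean of at least 100 CPM, were miR-676-3p (Pearson r = 0.898), miR-320-3p (r = 0.863) and let-7j (r = 0.810). Among the members r ranged from -0.19 for miR-98-5p to 0.99 for let-7a-5p. Here CPM were scaled by TMM factors over all 96 libraries, not by the library total alone. These points share libraries, that scaling and, for the members, counts within the sum.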

How the data were processed

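Small RNA was sequenced from 96 libraries of 4 cell types and 6 time points, 4 per group as named in the labels. The authors prepared libraries with the NEBNext small RNA kit, in batches by cell type, from 50 to 500 ng of RNA with 14 to 16 PCR cycles. They removed reads shorter than 18 bases and counted reads with the nf-core smrnaseq pipeline against miRBase, with Trim Galore, Bowtie2 and SAMtools per the labels. The deposited tables hold raw read counts per mature miRNA and per hairpin, not normalized. The authors set aside 1 small RNA replicate each of ECs at D28, HCs at D0 and FBs at D0 as outliers. Which ones is not given in the sources used here, so all 96 libraries were used. The row of unmatched reads, 25.6% to 83.0% of each table's total, was left out. Mature counts per library ranged from 18286 to 65588543, and no replicate pair held identical counts. The smallest chi-square per degree of freedom over the 144 pairs was 9.16.

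The 9 members and all lists of other miRNAs were chosen with earlier results of these data known. Counts were tested in edgeR 4.0.16 (R 4.3.3) with glmQLFit and glmQLFTest after filterByExpr, with Benjamini-Hochberg adjustment over all miRNAs tested (484 in CMs, 421 in ECs, 563 in FBs, 608 in HCs and 712 over all libraries) and a threshold of 0.05. All 9 members passed the filter in every fit. Levels used TMM factors, and shares used the family sum as library size. Each cell type was fitted alone for changes from D0, which share the D0 libraries, and all libraries together for cell types. All 9 members were described, with at most the 3 largest called rises and falls per cell type given in full, beside values that a comparison needed. Alternatives were DESeq2 1.42.0, limma 3.58.1, library size scaling, no filter, other denominators, the compared days alone, a replicate block and leaving out each library. The scripts were tested on simulated data. Loci are from RefSeq and GENCODE M21 on GRCm38.p6; the authors' genome build was not needed, since the tables hold no coordinates.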

Additional observations from a re-analysis of the deposited data

Results flagged for a closer look

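Of 240 groups of 4 libraries tested for a library far from the other 3 by Dixon's ratio, 16 were past the 95% critical value, where chance alone flags about 1 in 20. Of these, 5 concerned CM D28 replicate 1, in which let-7d-5p took 1.73% of the family (3.37% to 3.67% in the other libraries), let-7e-5p 3.69% (4.93% to 5.18%), let-7g-5p 16.7% (13.6% to 13.9%) and let-7i-5p 8.96% (6.83% to 6.88%), while the family took 5.20% of mature counts (7.01% to 7.36%). In EC D28 replicate 2, let-7b-5p took 8.92% (13.2% to 13.6%) and let-7f-5p 26.6% (18.7% to 20.0%). In CM D14 replicate 3, let-7g-5p took 13.2% (11.8% to 11.9%) and the family 7.26% of mature counts (8.76% to 8.85%).

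The other 7 were single shares. The let-7e-5p share was 2.88% in CM D0 replicate 1 (2.68% to 2.69% in the other libraries), 4.63% in CM D7 replicate 1 (5.54% to 5.64%) and 4.82% in FB D1 replicate 2 (5.62% to 5.76%). The let-7g-5p share was 12.5% in EC D0 replicate 1 (11.4% to 11.6%) and 14.2% in HC D0 replicate 1 (13.5% to 13.6%). The let-7c-5p share was 13.8% in EC D3 replicate 4 (12.2% to 12.5%), and the let-7f-5p share was 26.6% in HC D1 replicate 1 (27.4% to 27.5%).

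The time courses differed between cell types for 8 members in share by edgeR's interaction test, with adjusted p-values of 1.55e-10 for let-7b-5p, 1.26e-08 for let-7c-5p, 1.26e-07 for let-7d-5p, 8.04e-08 for let-7e-5p, 0.0108 for let-7f-5p, 5.55e-06 for let-7g-5p, 2.36e-09 for let-7i-5p and 3.30e-09 for miR-98-5p. In level the adjusted p-values were 4.25e-08 for let-7a-5p, 3.92e-07 for let-7b-5p, 2.56e-05 for let-7c-5p, 0.00381 for let-7d-5p, 0.00012 for let-7e-5p, 3.76e-09 for let-7f-5p, 7.99e-13 for let-7i-5p and 0.0304 for miR-98-5p. Preparation batch and cell type cannot be told apart in these tests.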

How the results depend on the processing

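Depth limited the rarest values most, since miR-98-5p had 11 counts in HC D0 replicate 3. Deviations of libraries with equal replicate number and day correlated weakly across cell types (mean 0.026, from -0.365 to 0.305). These values cannot show whether equal numbers mark pools of the same mice. A replicate block changed no call of a named change and moved no count by over 1.5 times. It gave, for example, 7 members with an interaction in level in place of 8. With limma too, no count moved by over 1.5 times. The cause was not tested for any value that follows, and numbers are calls among the 9 members or the 45 combinations of member and day.

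With library size as the only scaling, levels in CMs gave 8 members changed, 40 higher and 0 lower, those in FBs 5 members, 3 higher and 5 lower, and those in HCs 24 higher and 4 lower. The log2 change of level in CMs then reversed to 0.40 for let-7i-5p and 0.59 for let-7f-5p at D14 and to 0.36 for let-7i-5p at D7. With no filter on low counts, CMs had 13 lower in level and 5 members changed and 1 lower in share. ECs had 5 higher in level and 2 members changed, 0 higher and 1 lower in share. FBs had 7 lower in level and 2 members changed and 1 lower in share, HCs had 6 higher and 5 lower in share, and 5 members passed the interaction in level. Relative to the geometric mean, CM shares gave 17 higher and 15 lower and EC shares 4 higher, and with let-7j counted as let-7i-5p, which was chosen after the data were seen, EC shares gave 1 higher. With the compared days alone ECs gave 4 lower in level and 4 higher and 4 lower in share. DESeq2 gave 10 higher in HC level. In the 3 groups from which the study set aside a replicate, the library that lay farthest from its group in an earlier analysis of these data was left out as an alternative (EC D28 replicate 3, FB D0 replicate 2 and HC D0 replicate 3), which may not be the libraries the study set aside. EC shares then gave 4 members changed, FB levels 2 higher and 8 lower and HC levels 12 lower. With the most abundant miRNA of each library left out of the total, the family took 12.8% in CMs. No such value is given for FBs, where that miRNA was the member let-7a-5p in all 24 libraries. In HCs it was let-7a-5p in 1 library and let-7f-5p in 1, so none is given there either. With hairpin counts added, let-7e-5p took 4.71% of the family in HCs. With let-7j added, let-7i-5p took 17.7% in FBs and in HCs, 14.0% in ECs and 13.8% in CMs.

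Leaving out each library in turn gave 4 to 8 members changed in CM level, 3 to 7 in EC share and, for combinations of member and day, 1 to 5 higher in EC share, 1 to 3 higher and 8 to 13 lower in FB level, 2 to 5 lower in FB share, and 6 to 14 higher and 4 to 12 lower in HC level.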
